A study of Homo sapiens with 9 samples.

Results

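SF3B1 is the largest subunit of the SF3b complex in the U2 small nuclear ribonucleoprotein, the particle that pairs with the branch point of an intron and so marks the 3′ splice site nearby. SF3B1 clamps the RNA around the branch point adenosine, and a polypyrimidine tract between that adenosine and the end of the intron is bound by the U2AF heterodimer. In iCLIP, ultraviolet light joins a protein to the RNA it touches, the protein is immunoprecipitated, and the point where reverse transcription stops marks the crosslinked nucleotide.

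The SF3B1 sites described here are those on chromosome 21, the smallest human autosome and the one present in 3 copies in Down syndrome. They were chosen from the deposited list of SF3B1 binding sites as every entry on that chromosome outside the span of 1 gene, which is not analysed here. There were 1467 of them among 96852 sites in all, or 1.51% of the list. The chromosome was picked because it has the most sites per protein-coding gene with a site, so that number is a description of the choice and is not tested.

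By its labels, the list belongs to 3 libraries of SF3B1 immunoprecipitated with a monoclonal antibody from K562 cells with the genotype SF3B1 wt/wt, obtained from Horizon Discovery as HD PAR-131. K562 is an established human leukaemia line, which the labels describe as derived from a lymphoid leukaemia although it is commonly known as a chronic myeloid leukaemia line. Cells of every library in the series were irradiated at 400 mJ/cm2 and 254 nm, and no other treatment is named. The series also holds 2 SF3B1 libraries of cells with the genotype SF3B1 K700E/wt (HD 181-012) and 4 U2AF2 libraries of SF3B1 wt/wt cells from ATCC, which were not analysed here on their own. The list merges libraries, and its header speaks of replicates of either condition, so whether the mutated cells contributed to it could not be settled. It gives positions only. There is therefore no value per replicate, no read depth and no test between samples, and the intervals given below cover counting error only. Sites in 1 gene share its RNA and are not independent.

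Each site is 5 nt wide. For 11 of the chromosome 21 sites the surrounding RefSeq sequence was at hand, because they fall inside windows from 250 bases before to 50 after an annotated transcript start. They are shown because they let the spacing of sites be read against the letters of the RNA. The sequences are from GRCh38.p14 and are written in the sense of the RNA, with sites in capitals. The first is from PAXBP1 (chr21:32751187-32751291, minus strand), the second from PTTG1IP (chr21:44865410-44865528, minus strand), and the last 2 from C21orf58 (chr21:46318193-46318292 and chr21:46318388-46318452, minus strand).
PAXBP1: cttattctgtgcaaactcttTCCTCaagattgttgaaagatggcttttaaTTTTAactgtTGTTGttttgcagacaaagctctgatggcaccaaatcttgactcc
PTTG1IP: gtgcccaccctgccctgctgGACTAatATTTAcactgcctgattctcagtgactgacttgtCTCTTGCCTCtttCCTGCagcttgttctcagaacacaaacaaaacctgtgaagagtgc
C21orf58: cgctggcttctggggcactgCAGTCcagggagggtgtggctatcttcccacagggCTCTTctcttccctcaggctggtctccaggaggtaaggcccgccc
C21orf58: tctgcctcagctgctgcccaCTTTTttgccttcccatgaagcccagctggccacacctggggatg

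In PAXBP1, which encodes a PAX-binding protein, the first site lay 30 nt before the second and 40 nt before the third. The third site was followed by CAG, letters that often close an intron, 10 nt after its centre. In PTTG1IP, which encodes a protein that binds the separase inhibitor securin, 2 sites upstream were followed after 34 nt by 3 sites that ran up to the CAG, the last of them 4 nt from its end. The 2 sites of the third sequence, in C21orf58, were 35 nt apart, and the second of them lay 14 nt before the end of a CAG. In 3 of these 4 stretches the sites thus stood in an upstream and a downstream set, with 30 to 54 nt between their members. Exon limits were not used here, so these CAGs are described by their letters alone.

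Thymine, which is uracil in the RNA, made up 47.3% of the 55 bases of these 11 sites, against 25.6% of the windows that hold them. At 416 sites of the other chromosomes that lie in such windows the share was 58.2%, against 25.9% of their windows. A CAG on the strand of the site within the 30 nt after it was found for 10 of the 11 chromosome 21 sites and for 160 of 365 sites elsewhere (43.8%). Of all 30-nt pieces of the 35116 windows, 50.2% hold a CAG. The 11 sites come from 3 genes, so they are examples and not a sample of the chromosome.

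Among the 237 protein-coding genes of chromosome 21, 74 (31.2%, 95% Wilson interval 25.7% to 37.4%) held at least 1 site that lay in no other protein-coding gene. Over all 23 chromosomes with sites the share was 37.4%. The 163 other genes include the keratin-associated protein genes, which encode hair shaft proteins and lie in dense clusters on this chromosome: 49 of 49 had no site. Without them, 39.4% of the 188 remaining genes had a site. No gene family was left out on the other chromosomes, so 39.4% cannot be set against 37.4%. With all genes counted, chromosome 21 had rank 22 of 23. LOC102724023 and GATD3 have the same length, 12029 bases, as do LOC107983987 and SMIM34, 9453 bases, and all had 0 sites. Whether such genes are copies between which reads cannot be placed was not tested, so these counts and the share are uncertain.

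For each gene with a site there were, over all sites listed, 19.8 sites on chromosome 21 and 13.0 over the other 22 chromosomes. The next highest value was 15.6, on chromosome 1, and the lowest 7.66, on chromosome 19. At the value of the other chromosomes, the 74 genes would have had 963 sites, which is 504 fewer than were listed. Dividing by all protein-coding genes, with or without a site, put chromosome 21 second of 23, with 6.19 sites per gene against 6.195 on chromosome 2 and 4.87 over the other 22.

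**Figure D1:**
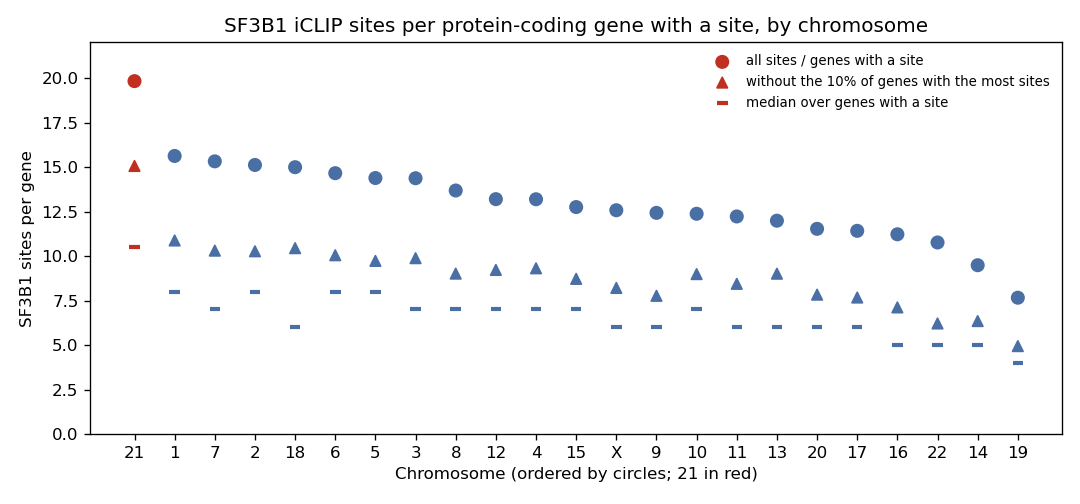
SF3B1 sites per gene (vertical axis) for the 23 chromosomes with sites (horizontal axis, 21 in red). Circles are all sites divided by protein-coding genes with a site, triangles the same without the 10% of genes with the most sites, and dashes the median over genes with a site. Chromosome 21, chosen by the value of the circles, is highest in all 3, at 19.8, 15.1 and 10.5.

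BRWD1 carried the most sites, 118, followed by TTC3 with 66, LSS with 62, and GART and SCAF4 with 56 each. These 5 genes held 24.4% of the chromosome's sites. PCNT had 51 sites, URB1 49, LTN1 and MCM3AP 46 each, PTTG1IP and USP25 44 each, SON 43, DIP2A 39, and CCT8 and PAXBP1 38 each. The first 12 of these, with at least 40 sites, held 681 sites or 46.4%, and 14 genes held 50% of the sites. RUNX1 had rank 17, with 30 sites.

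The leading genes carried much of the higher number per gene, but the first 5 did not carry all of it. Summed over the 34 genes above the mean of 12.3 sites elsewhere, the sites beyond that mean came to 791, of which BRWD1 gave 13.4%, the 3 leading genes 26.4% and the 5 leading genes 37.5%. The 40 genes at or below that mean are not in this sum, so these shares would be larger against a net excess. The 504 given above counts all sites listed and is not the net of this sum. BRWD1 alone held 8.04% of the chromosome's sites and the 5 leading genes 24.4%, each rank 2 of 23. The medians of the other chromosomes were 3.39% and 10.8%, with more genes with a site on each. Without BRWD1 the value for chromosome 21 was 18.5, without the 3 leading genes 17.2, and without the 5 leading genes 16.1. It came below chromosome 1 only when at least 6 genes were left out of chromosome 21 alone, and below the other 22 chromosomes when 12 were. Leaving out the same number of leading genes everywhere kept it first up to 8 genes (14.6 against 14.5 on chromosome 1). With 9 it was second, but 9 genes are a larger part of the 74 on chromosome 21 than of the 797 on chromosome 1. Leaving out the leading 10% of genes on every chromosome gave 15.1, against 10.9 on the next chromosome and 8.76 over the other 22.

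The median and the upper quartile were higher as well, which the choice of the chromosome by its mean favours. The median gene with a site had 10.5 sites on chromosome 21 and 7 elsewhere, where the highest chromosome median was 8. The upper quartile was 25.8 against 15. Genes with at least 20 sites made up 37.8% (28 of 74), against 18.8% of 7331 genes elsewhere. All classes below that were smaller on chromosome 21. Genes with 10 to 19 sites numbered 11 of 74, against 1468 of 7331, and genes with 5 to 9 sites 11, against 1613. Genes with 2 to 4 sites made up 21.6% against 24.8%, and genes with 1 site 10.8% against 14.4%. Of the 16 genes with 20 to 39 sites, all but DIP2A, CCT8, PAXBP1, USP16 and RUNX1 had fewer than 30.

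Gene length gave a similar picture, which the choice of the chromosome by these counts favours. Chromosome 21 genes with a site had a median length of 37.7 kb, with rank 13 among the 23 chromosomes, and 36.8 kb was the median elsewhere. Genes of the same length class on the other chromosomes would have given 940 of the sites assigned to 1 gene, against 1402 listed. This ratio of 1.49 was the highest of the chromosomes, followed by 1.29 on chromosome 1. Per kb of the genes with a site there were 0.269 sites, against 0.263 on chromosome 19 and 0.181 over the other 22. No measure of RNA abundance was used, so a gene rich in sites and a gene rich in RNA cannot be told apart. Copy number of the chromosome in these cells was not tested.

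**Figure D2:**
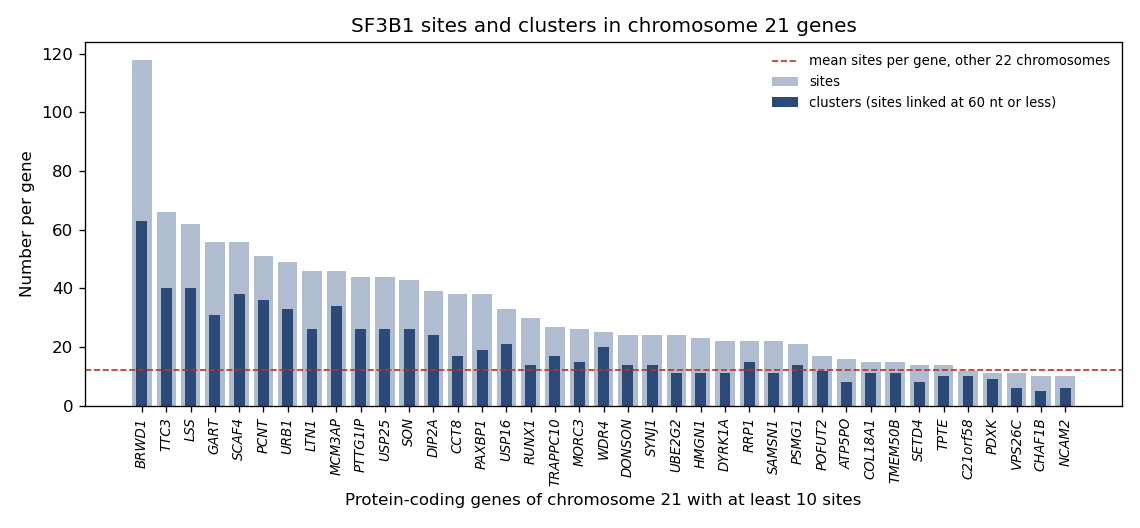
Number of SF3B1 sites (light bars) and of clusters of sites linked at 60 nt or less (dark bars) in the 39 protein-coding genes of chromosome 21 with at least 10 sites, in falling order. The dashed line is the mean of 12.3 sites per gene on the other 22 chromosomes; the bars go down gradually from 66 in TTC3 to 10 in NCAM2, with BRWD1 apart at 118.

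Chromosome 21 also came first when closely spaced sites were counted once, which its choice by sites per gene favours. Sites linked at 12 nt or less on 1 strand gave 16.5 elements per gene against 10.9 elsewhere. Sites linked at 60 nt or less gave 12.3 clusters per gene against 8.27. BRWD1, a bromodomain and WD-repeat protein that binds acetylated histones, had 63 clusters between positions 39197458 and 39298630. TTC3, a ubiquitin ligase, and LSS, lanosterol synthase of the sterol pathway, had 40 clusters each. PCNT, the centrosome scaffold pericentrin, had 36 clusters for its 51 sites, and CCT8, a subunit of the TRiC chaperonin, only 17 for its 38.

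The genes of RNA processing and translation on a list drawn up with earlier results of these data known had 12 of 15 members with a site, a median of 22 sites per gene and 312 sites in all. For all 237 genes of the chromosome the median was 0 and 31.2% had a site (37.4% over all chromosomes). The list also holds TRAPPC10, a membrane traffic gene, and DONSON, a replication factor. Without these 2 genes its median was 9, with 10 of 13 members holding 261 sites. SCAF4, which limits early polyadenylation by RNA polymerase II, had 56 sites between positions 31684970 and 31706418, all in the stretch from 42.1% to 77.1% of the gene. SON, a nuclear speckle protein needed for splicing of weak introns, had 43 sites at 1.25 per kb, from 9.07% of the gene to 4.22% before its end. LTN1, the ubiquitin ligase of stalled ribosomes, and MCM3AP, a scaffold for mRNA export, had 46 each. WDR4, a subunit of a transfer RNA methyltransferase, had 25, and RRP1, a ribosome biogenesis factor, had 22. No site was listed in MRPS6, PCBP3 or RBM11.

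Genes of ubiquitin transfer, folding and the proteasome had a site in 9 of 10 cases, with a median of 28.5 sites, where 31.2% of all genes of the chromosome had a site. TTC3 and LTN1 led, followed by the deubiquitinases USP25 with 44 and USP16 with 33. LTN1 is counted under RNA processing and translation as well. CCT8 had 38, the ubiquitin-conjugating enzyme UBE2G2 24, and PSMG1, a proteasome assembly chaperone, 21. The list also holds PIGP, a gene of GPI anchor synthesis, with 4 sites and CHODL, a membrane lectin, with 0. Without these 2 genes 8 of 8 had a site, with a median of 35.5. They were left out after their low counts were seen, which favours that result. Of the 8 kept, SUMO3 had the fewest sites, 2.

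Among 17 genes listed under purine, one-carbon, redox and metal metabolism 13 had a site, with a median of 4. Their share was 76.5%, against 31.2% of all genes of the chromosome. MCM3AP is counted there as well as under RNA processing, and without it 12 of 16 had a site, with a median of 4. LSS, a sterol pathway gene that the name of the list does not cover, had 62. GART, a trifunctional enzyme of purine synthesis, had 56. ATP5PO, a subunit of the mitochondrial ATP synthase, had 16, and SOD1, the cytosolic superoxide dismutase, 6. CBS had 4 sites, and an almost identical copy of it on the short arm makes that count uncertain. FTCD, CBR3, PDE9A and SLC5A3 had 0.

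Transcription factors and chromatin proteins had a site in 16 of 21 genes (76.2%, against 31.2% of all genes of the chromosome), with a median of 3, so the group held both the richest gene and many poor ones. BRWD1 was followed by RUNX1 with 30 sites, MORC3 with 26, HMGN1 with 23, SETD4 with 14 and CHAF1B, the chromatin assembly factor subunit, with 10. RUNX1 is the haematopoietic factor altered in many leukaemias. Its sites lay between positions 34792627 and 34888514, and its first 161 kb, or 61.5% of the RefSeq span, held none. That left 0.115 sites per kb, rank 47 of the 50 genes with at least 5 sites. BACH1, a repressor of haem-responsive genes, had 4, and the ETS factors ETS2 and GABPA had 3 each, while ERG, OLIG1, OLIG2, SIM2 and DNMT3L had 0.

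Of 12 immune and cytokine receptor genes 3 had a site (25%, near the 31.2% of all genes of the chromosome): SAMSN1, an adaptor of haematopoietic cells, with 22, the interferon receptor subunit IFNAR1 with 8 and IFNGR2 with 1. Of 13 neural and adhesion genes only NCAM2 had any, 10 sites over a gene of 544921 bases. The longest genes with 0 sites were DSCAM (836160 bases), TIAM1 (440670 bases) and GRIK1 (403064 bases). Of 9 genes listed as kinases and phosphatase regulators 4 had a site (44.4%). They were PTTG1IP with 44, which is neither, and SYNJ1, a lipid phosphatase of endocytosis, with 24. The others were DYRK1A, a kinase studied for its dosage in Down syndrome, with 22, and the scaffold ITSN1 with 5. Without PTTG1IP, ITSN1 and TIAM1, 2 of 6 genes had a site, with 46 sites and a median of 0. In the list of membrane traffic and centrosome genes 8 of 11 had a site (72.7%), led by PCNT with 51 and TRAPPC10 with 27. TRAPPC10, SYNJ1 and ITSN1 are on other lists too. TPTE was the 1 member with sites among 55 keratin-associated and other tissue-restricted genes, with 14; it belongs to a family with near-identical copies, so its count is uncertain.

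Some site-rich genes adjoin each other or lie near each other. How often genes of the chromosome do so was not compared. GART, SON and DONSON, which follow each other within 84.8 kb, held 123 sites. PSMG1, BRWD1 and HMGN1 held 162 within 174 kb. LTN1, USP16 and CCT8 held 117 within 146 kb, and RWDD2B with its 1 site, not counted, lies between LTN1 and USP16. LSS, MCM3AP, C21orf58, PCNT and DIP2A, with YBEY between them, held 210 within 395 kb near the end of the long arm. These 4 groups, picked for their many sites after the values were seen, held 41.7% of the sites of the chromosome. Of 47 stretches of 1 Mb, 19 had 0 sites, while the 5 richest held 53.7%. Before 28 Mb there were 163 sites and 11 of 41 genes had one, where 74 of the 237 genes of the whole chromosome had one. Those 41 include LOC102724023 and LOC107983987, whose counts are uncertain.

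Relative to length, HMGN1, a nucleosome-binding protein, came first with 3.40 sites per kb in a gene of 6774 bases. PSMG1 followed with 2.40, CCT8 with 2.19, DONSON, a replication fork factor, with 2.16 and PTTG1IP with 1.83. BRWD1 had 0.861 per kb and TTC3 0.508. The 5 leading genes by density and the 5 by number shared 0 genes, while the 15 leading genes of each order shared 9. Across the 74 genes, Spearman's rho between sites and length was 0.31, against 0.23 for genes elsewhere; genes are not independent replicates.

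**Figure D3:**
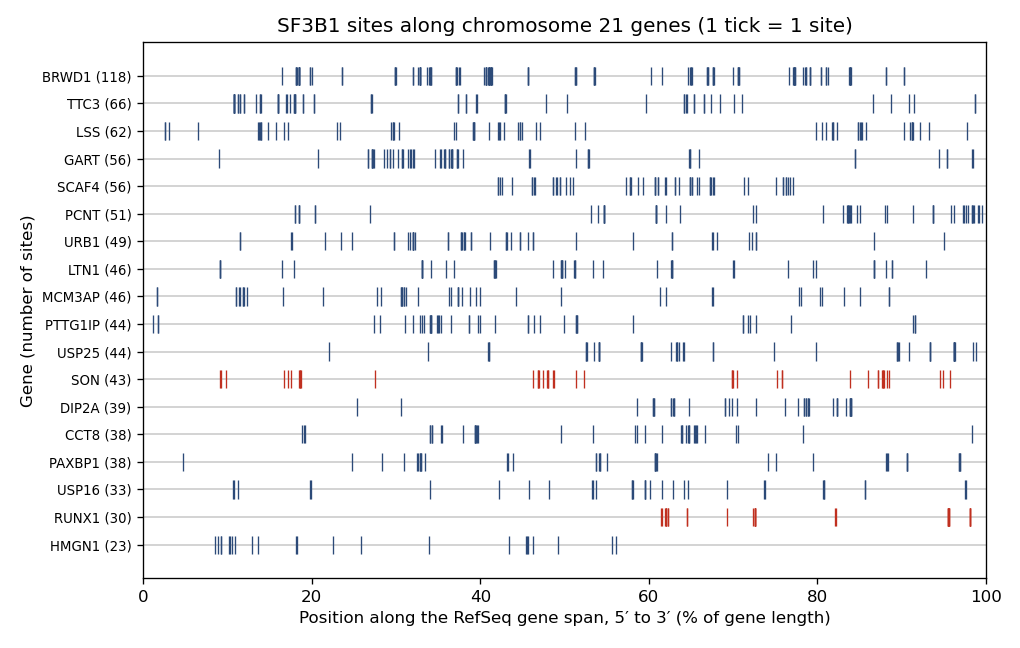
SF3B1 sites (1 tick each) along the RefSeq span of 18 chromosome 21 genes, from the 5′ end at 0% to the 3′ end at 100%, with RUNX1 and SON in red and the number of sites in brackets. The ticks of RUNX1 start at 61.5% of the gene, those of SCAF4 lie between 42.1% and 77.1%, and 17 of the 51 ticks of PCNT lie in its last 10%.

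Along genes with at least 5 sites, chromosome 21 had a smaller share of its sites at both ends than the other 22 chromosomes together. The last 10% of the 50 genes held 8.95% of the sites (120 of 1341, 95% Wilson interval 7.54% to 10.6%), against 13.0% elsewhere; chromosome 18 had a lower share, 8.89%. The first 10% held 2.09% (28 sites, interval 1.45% to 3.00%), the lowest share of the 23 chromosomes, against 4.49%. More sites lay in the last than in the first 10% in 25 genes and fewer in 4, with 21 equal. Averaged over genes so that each counts once, the last 10% held 9.18%, the lowest of the 23 chromosomes, against 13.4% elsewhere. The first 10% held 3.04% by that mean, rank 21 of 23, against 5.07%. PCNT with 17 sites, USP25 with 12 and RUNX1 with 11 had the most sites in their last 10%, while SCAF4, MCM3AP, DIP2A, TRAPPC10 and 18 further genes had 0 there. RefSeq spans run to the outermost annotated ends, which these cells need not use.

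**Figure D4:**
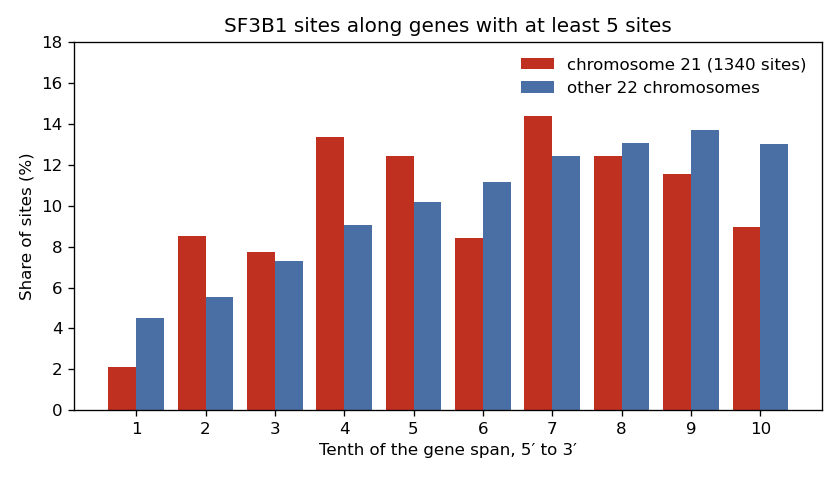
Share of SF3B1 sites (vertical axis, %) in each 10% of the gene span from 5′ to 3′ (horizontal axis), in genes with at least 5 sites, for chromosome 21 (red) and the other 22 chromosomes (blue). Of the chromosome 21 sites on the strand of their gene, 2.09% lie in the first 10% and 8.96% in the last, both lower than elsewhere (4.49% and 13.0%).

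The spacing of sites resembled that of the rest of the list. Neighbouring sites on 1 strand had a median distance of 190 nt, against 201 nt elsewhere, and 38.0% were at most 60 nt apart, against 36.4%. Within genes, 363 pairs were 25 to 45 nt apart and 92 pairs 46 to 66 nt apart. Their ratio of 3.95 had rank 5 among the 23 chromosomes. It ranged elsewhere from 2.53 to 4.47, with 3.56 over the other 22 together. Counting runs of sites linked at 12 nt once turned this order, with 3.52 (rank 15) against 3.62. The nearer span had more pairs in 46 genes and fewer in 2. Between 20 and 60 nt, the most pairs, after summing over 3 adjacent distances, were at 38 nt on chromosome 21 and 37 nt elsewhere. BRWD1 contributed 43 of the nearer pairs and 7 of the farther ones, LTN1 18 and 2, and CCT8 17 and 9.

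**Figure D5:**
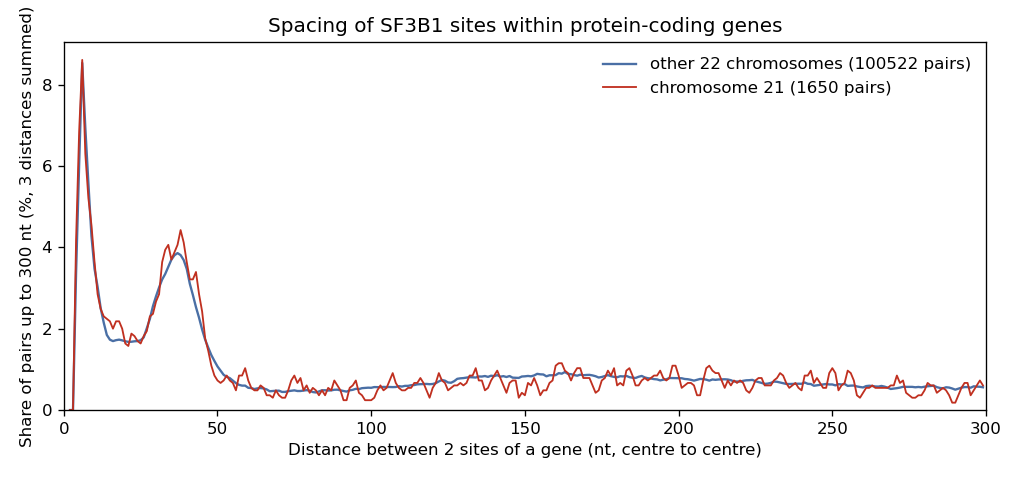
Share of pairs of sites of a gene (vertical axis, % of pairs up to 300 nt apart, 3 adjacent distances summed) by their distance in nt (horizontal axis), for chromosome 21 (red, 1650 pairs) and the other 22 chromosomes (blue). Both lines have their second peak near 38 and 37 nt; the red line is rougher, with fewer pairs behind it.

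At larger distances, 168 pairs were separated by 140 to 180 nt and 109 by 60 to 100 nt, a ratio of 1.54, where other chromosomes gave 1.72. Linking at 60 nt gave 911 clusters with a mean of 1.61 sites, of which 62.9% held a single site, against 63.3% elsewhere. The largest clusters held 6 sites and lay in CCT8, GART, TTC3, BRWD1 and UBE2G2. That in TTC3 spanned 45 bases (chr21:37087192-37087236, plus strand), and that in BRWD1 70 bases (chr21:39295891-39295960, minus strand).

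Strand followed the annotation. The sites were 541 on the plus and 926 on the minus strand, and BRWD1, LSS, GART and SCAF4 are all on the minus strand. In genes whose strand was known from the RefSeq promoter table, 1248 of 1249 sites lay on it (99.92%). The exception was a plus-strand site in MCM3AP, at positions 46236206 to 46236210, where the non-coding RNA MCM3AP-AS1 overlaps.

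Of the 1467 sites, 1402 lay in exactly 1 protein-coding gene, 16 in a pair of them and 49 (3.34%) in none. The pairs were BTG3 with CXADR (10 sites) and C21orf58 with YBEY (6 sites). Outside protein-coding genes, 26 sites lay in long non-coding RNA genes, 15 in transcribed pseudogenes and 6 outside every gene span. By all sites in their span, the non-coding genes with the most were LOC124905053 with 22, PAXBP1-AS1 with 11, and MCM3AP-AS1 and the pseudogene BAGE2 with 10 each. The sites in LOC124905053 and PAXBP1-AS1 were all on the minus strand, opposite to these RNAs, and inside the protein-coding genes they overlap. BAGE2 has near-identical copies, so its count is uncertain. Sites outside protein-coding genes thus added little to the number per gene, which was 18.9 without them and without shared sites, against 12.3 elsewhere.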

How the data were processed

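The authors deposited 1 list of SF3B1 sites for the 3 unmutated SF3B1 libraries. Per the file headers, it merges sites of 5 nt that recurred in each replicate of at least 1 condition. Every deposited score is 0 and was not used. The submitters' processing notes name STAR 2.7.3a and 2.6.1b, UMI-tools 1.0.0, bedtools 2.27.1, FastQC 0.11.8, GRCh38.p10 and GRCh38.p12 without their roles; the site caller is not given in the sources used here. Here, starts were made 1-based, and a site was assigned by its centre to RefSeq gene spans of GRCh38.p14; genes placed on scaffolds were left out. Counts per gene use sites inside exactly 1 protein-coding gene. Gene strand came from the RefSeq promoter table or, without an entry, from the majority of sites. Expected counts used 10 length classes. Intervals are Wilson intervals. Gene assignment was checked by direct search. The chromosome, gene lists and spans were chosen with earlier results of these data known. Named genes are the 15 with the most sites, RUNX1 and SON, the extremes of each list, the densest genes, the longest without sites and the leading non-coding genes. Genes named beyond these, and members left out of a list for their known role, were chosen after their values were seen. Python 3.11.15, NumPy 2.4.6, pandas 2.3.3, SciPy 1.17.1 and Matplotlib 3.10.9 were used.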

Additional observations from a re-analysis of the deposited data

How the results depend on the processing

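Of 18 recalculations of 6 values, 14 stayed within 1.5 times the value or, for shares and ratios of 2 counts, inside its 95% interval. The number of sites per gene with a site, 19.8, moved to 12.3 when clusters linked at 60 nt were counted, to 10.5 as the median over genes, and to 6.19 when divided by all protein-coding genes. The density of 0.269 sites per kb became 0.107 with genes without a site included, since more length was counted. Chromosome 21 ranked first in 10 of the 12 recalculations of sites per gene, which its choice by that value favours. It was second without the 10 leading genes of every chromosome (13.6) and over all protein-coding genes. Division by all genes and omission of the leading 10% were chosen after seeing the data. No paired analysis was possible because positions come without replicate numbers, and for the same reason no replicate could be left out. Reads per site are unknown here, so in genes with 0 sites too few reads, reads that fit several places, and no binding cannot be told apart.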
